A study of Homo sapiens with 6 samples.

Results

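Cassette exon events of 9 splicing factor genes, SRSF1 to SRSF7, TRA2A and TRA2B, were examined in the splicing table of a breast cancer cell line with and without the RNA binding protein RBM47. Members were every event in the table filed under the gene identifiers of these 9 genes. There were 23 such events of 24725 in all, in 7 of the 9 genes: 6 in TRA2A, 5 in SRSF4, 4 in SRSF7, 3 in TRA2B, 2 each in SRSF5 and SRSF6, and 1 in SRSF3. SRSF1 and SRSF2 had 0 events in the table and are not described further. Events are named by their gene and a letter, which follows the start, the end and then the including reads of the event.

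RNA was sequenced from MDA231-BrM2a cells, a brain-metastatic derivative of the human breast cancer cell line MDA-MB-231. The control group was 3 samples of a non-clonal population carrying the empty vector pRetroX-Tight-Pur. The RBM47 group was 3 samples of a single clone, wt#10, carrying Flag-tagged wild-type RBM47 in the same vector under a doxycycline-inducible promoter. All 6 samples received doxycycline at 10 ng/ml for 3 days. RBM47 expression and clonal origin cannot be told apart in this design. The labels do not say that the samples of a group were separate cultures. The limma p-values below therefore measure only the spread between these samples, which may be technical. The Fisher p-values use the read totals of a group and no spread between samples.

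SR proteins bind exonic enhancers through RNA recognition motifs and recruit the splicing machinery through domains rich in arginine and serine. TRA2A and TRA2B are related activators with such domains on both sides of a single RNA recognition motif. Many of these genes carry a conserved poison exon, a cassette exon that brings an in-frame stop codon into the mRNA, so that the including transcript is degraded by nonsense-mediated decay. A high level of the protein is known to promote inclusion of the poison exon of its own mRNA, which lowers the amount of productive mRNA.

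Of the 23 events, 17 had the same gene and outer span as an exon and its neighbours in the GENCODE annotation of GRCh37, and 11 of these 17, in 5 genes, spanned at least 1 annotated poison exon. A poison exon was here an exon of a decay or non-coding transcript that is not coding in a protein-coding transcript of its gene, whether or not the annotation placed a stop inside it. Several events shared 1 span, and 9 candidate poison exons, with 7 different splice acceptors, lay inside these spans. An annotated stop lay inside 5 of the 9, and none was annotated inside the SRSF4 exons or the 312- and 79-base exons of TRA2A. Which event of a shared span used which candidate could not be assigned. In TRA2B the 3 events matched coding exons, and no event was matched to the TRA2B poison exon. The sequences below are read from GRCh37 on the strand of the gene, 5′ to 3′, and are shown because they hold the splice acceptors of these exons and, where the annotation placed one inside the exon, the stop codon. Capitals mark the stop codon in the stretches that run from 20 intron bases to the stop, and the AG of the acceptor or the stop codon in the 30-base stretches.
SRSF3, 456-base exon, chr6:36567578-36567631, plus strand: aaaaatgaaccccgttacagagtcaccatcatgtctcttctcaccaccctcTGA
SRSF6, 268-base exon, chr20:42087773-42087944, plus strand: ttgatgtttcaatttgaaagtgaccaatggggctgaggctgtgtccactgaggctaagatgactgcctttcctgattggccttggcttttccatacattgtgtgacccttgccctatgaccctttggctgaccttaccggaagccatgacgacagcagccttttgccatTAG
SRSF7, 449-base exon, chr2:38976461-38976508, minus strand: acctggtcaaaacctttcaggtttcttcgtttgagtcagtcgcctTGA
SRSF7, 276-base exon, acceptor, chr2:38976306-38976335, minus strand: cttcaccttattctttaaAGggcagaaaat
TRA2A, acceptor shared by the 301-, 312- and 79-base exons, chr7:23562042-23562071, minus strand: aatgttctttttccattaAGgttaatgttc
TRA2A, stop of the 301-base exon, chr7:23561908-23561937, minus strand: aaaaaattgaacagaagattggtcagaTAG
SRSF4, 195-base exon, acceptor, chr1:29486561-29486590, minus strand: ctcaatgttttaattaaaAGaatcctttga
SRSF4, 228-base exon, acceptor, chr1:29486594-29486623, minus strand: aatgcaattgtttaacatAGatttaacaaa

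The exons differed in how soon the reading frame closed. In SRSF3 the stop codon followed 31 exon bases, in the 449-base exon of SRSF7 25, in its 276-base exon 19, in the 301-base exon of TRA2A 141 and in SRSF6 149. For the SRSF4 exons no stop was annotated inside the exon, and the position of the stop elsewhere in their decay transcripts was not recorded. Since the study examined U-rich binding of RBM47, runs of T were counted in the 100 intron bases before each acceptor, on the strand of the gene only. TTTTT was present before 6 of the 7 poison exon acceptors, and before 4150 of 10157 exons (40.9%) matched alone to an event of the table. The windows before both SRSF4 acceptors overlap, so the 7 are not separate sequences. The longest run was 8 before the SRSF3 exon, 7 before both SRSF4 exons, 5 before the SRSF6, TRA2A and 449-base SRSF7 exons, and 3 before the 276-base SRSF7 exon, which lacked TTTTT. A match describes these letters and is not a binding site.

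**Figure D1:**
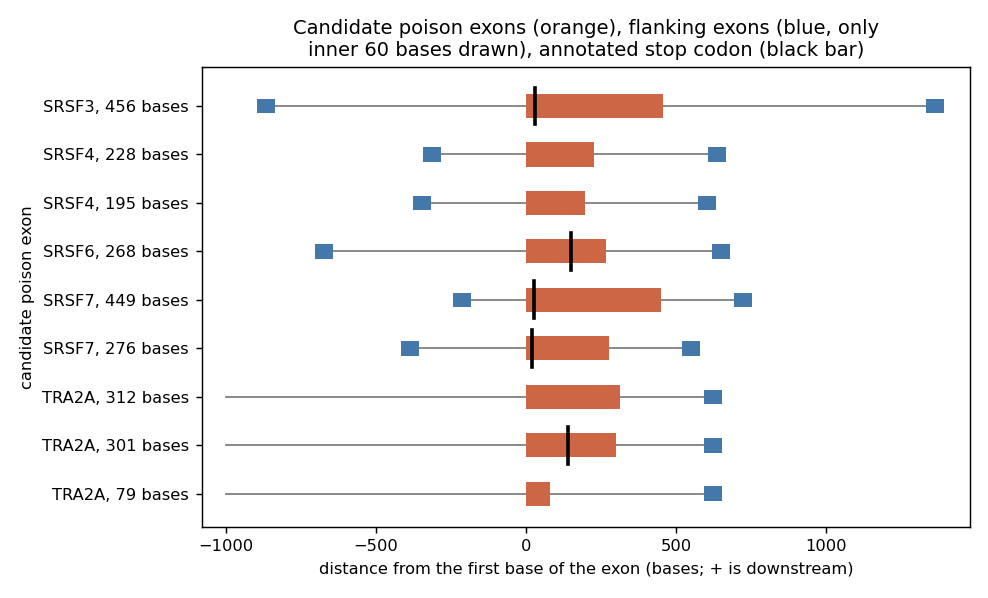
Map of the 9 candidate poison exons, to scale in bases from the first base of the exon, with the exon in orange, the inner 60 bases of each flanking exon in blue, introns as grey lines and an annotated stop inside the exon as a black bar. The long upstream intron of TRA2A is cut off at 1000 bases. The stops follow 31 exon bases or fewer in SRSF3 and SRSF7, and 141 and 149 in TRA2A and SRSF6.

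In the inclusion rate of an event, the reads across both junctions of the cassette exon were set against the reads across the single junction that skips it. The skipping reads were given a weight of 2, so that the rate ran from 0 (always skipped) to 1 (always included). Rates were deposited for each sample, and read totals only for each group, so the depth of a sample is unknown. The including totals and the rates do not count the same reads, so a rate need not follow from the totals at this weight. For SRSF3-a the mean control rate was 0.223, while the including share of the control totals was 0.697. Reads over all events came to 26498401 in control and 24116982 in RBM47 cells. The 23 member events had a median of 3758 reads over both groups, against 665 for all events, and 142 to 8167 reads in a group. Of the rates of events with a mean of 0.1 to 0.9, 14.8% were exactly 0 or 1 in RBM47 replicate 2, against 6.08% to 7.63% in the other samples. In 9 of the 23 member rows the rates did not average to the group averages printed beside them, and the rates of these 9 events were taken from the row that did carry both averages.

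By the study criteria 0 of the 23 events changed, against 1.4% of all events. These criteria were 10 or more reads, a mean rate differing by 0.2 or more and an unadjusted Fisher p of 0.05 or less. limma on the rates of the samples, run where the mean rate was 0.1 to 0.9, called 0 of 6 member events (a difference of 0.2 or more with an adjusted p under 0.05), against 1.53% of 5999 events. Without the limit on the difference it also called 0 of 6, against 2.23%. At an unadjusted limma p under 0.05 and any size of difference, 1 of the 6 passed, SRSF3-a, against 12% of all events tested. With Fisher's exact test at an unadjusted p of at most 0.05 and no minimum difference, 11 of 23 passed, against 14.4% of all events. Among events with 1000 reads or more, 11 of 20 members passed, against 20.2% of all such events. After adjustment over all events, 9 of 23 had a Fisher p under 0.05, against 5.29%. All 9 re-matched events were among these 11, beside SRSF4-c and SRSF5-a. The test takes the samples of a group together and does not use their spread, and events with a common span share their skipping reads, so these 11 are not independent.

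The mean rate was higher in RBM47 cells for 16 of the 23 events, lower for 6 and equal for 1, where 41.9% of all events were higher and 42.7% lower. The median difference (RBM47 minus control) was 0.0118, against 0 over all events, and the median absolute difference was 0.0155, against 0.0114. The largest difference was 0.0956 and the lowest −0.0204. In 5 events the control and RBM47 rates had no overlap (9.93% of all events), of which 4 were higher (4.67%) and 1 lower (5.25%) in RBM47 cells. With a mean rate of 0.1 to 0.9, 1 of 6 members was higher without overlap, against 7.83% of all such events. Among the 11 events that spanned a poison exon, 8 were higher and 3 lower, with a median difference of 0.0176. The 23 events lay in 15 spans and these 11 in 5, so the counts of direction are not of independent events. A Fisher p of at most 0.05 was found in 8 of the 11, against 14.4% of all events, and these 8 lay in 4 spans, so that their skipping reads were partly the same.

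**Figure D2:**
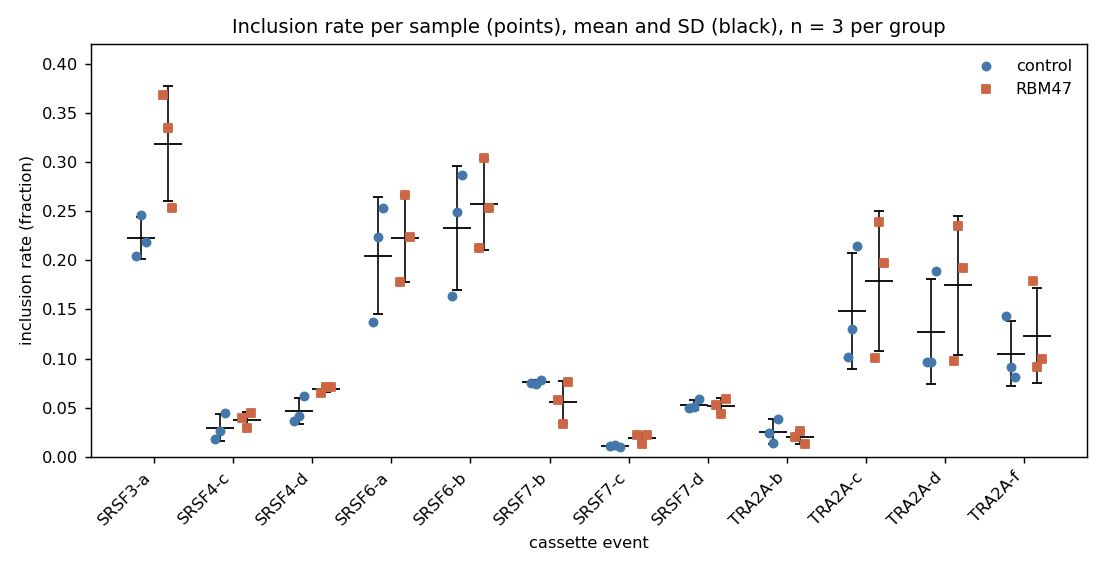
Inclusion rate (fraction, vertical axis) of 12 events, those of mean rate 0.1 to 0.9 or over a poison exon, with blue circles for the 3 control and orange squares for the 3 RBM47 samples and black lines for mean and SD. SRSF3-a has the widest gap between means (0.223 and 0.318), the groups of SRSF3-a, SRSF4-d and SRSF7-c do not overlap, and those of the SRSF6 and TRA2A events do.

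SRSF3 is the smallest of the SR proteins and is known to act in mRNA export as well as in splicing. Its single event, SRSF3-a, lay at 36674603 to 36676944 on chromosome 6 in the coordinates of the table, whose build is not named. By gene and span it matched the 456-base poison exon at 36567598 to 36568053 in GRCh37. The inclusion rate was 0.204, 0.246 and 0.218 in the control samples. In the RBM47 samples it was 0.368, 0.334 and 0.253. All 3 RBM47 samples were above all 3 control samples, and the lowest RBM47 sample was close to the highest control.

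The mean of SRSF3-a was 0.223 ± 0.0214 for control and 0.318 ± 0.0587 for RBM47 cells (SD, n = 3), a difference of 0.0956. The limma p was 0.0116 and did not pass the adjustment over 5999 events (adjusted p = 0.207). A limma fit on untransformed rates gave a 95% interval of the difference of 0.0314 to 0.160, not adjusted for the number of events. The difference was 0.0877 without RBM47 replicate 2, and ran from 0.0711 to 0.128 with each sample left out in turn. With all mean rates tested, the limma p was 0.0407 (adjusted p = 0.643). Without RBM47 replicate 3 the adjusted limma p was 0.0583, and over all 6 samples left out in turn it ran up to 0.492. A difference of 0.09 or more was common in the table. It was found in 30.5% of 5379 events with a mean rate of 0.1 to 0.9 and 30 or more reads per group, and in 1 of the 6 members among them, SRSF3-a. The limit of 0.09 was used for description only and lies just under the difference of SRSF3-a.

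The read totals of SRSF3-a gave the same direction as its rates. Including reads came to 4047 in control and 3397 in RBM47 cells, a ratio of 0.839. Skipping reads came to 1761 and 1074, a ratio of 0.610. The including share of all reads was 0.697 and 0.760, a difference of 0.0630, smaller than the difference in rates (Fisher's exact test, two-sided, p = 1.2e-12, adjusted p = 1.62e-10). SRSF3-a was 1 of the 9 re-matched events. With the rates that stood in its own row, which do not average to the values printed there, the difference was 0.0117.

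TRA2A is a sequence-specific splicing activator and a paralogue of TRA2B. Events TRA2A-b, TRA2A-c and TRA2A-d shared the span 23527850 to 23538124 on chromosome 7 in the table, which held the 301-, 312- and 79-base poison exons and a 90-base untranslated exon. TRA2A-d had rates of 0.0960, 0.0966 and 0.189 in control and 0.0970, 0.235 and 0.192 in RBM47 samples. Its means were 0.127 ± 0.0537 and 0.174 ± 0.0704 (SD, n = 3), a difference of 0.0471. The groups overlapped, since control replicate 3 was near RBM47 replicate 3 and RBM47 replicate 1 was near the other controls.

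TRA2A-c followed the same order of samples, with rates of 0.101, 0.130 and 0.215 in control and 0.1004, 0.239 and 0.197 in RBM47 samples. Its difference was 0.0302, between means of 0.149 ± 0.0592 and 0.179 ± 0.0709 (SD, n = 3). The adjusted limma p was 0.688 for TRA2A-d and 0.833 for TRA2A-c, with 95% intervals of the difference of −0.0392 to 0.133 and −0.0628 to 0.123. Both differences moved when single samples were left out. They were 0.0170 for TRA2A-d and 0.000276 for TRA2A-c without RBM47 replicate 2, 0.0858 and 0.0694 without RBM47 replicate 1, and 0.0781 and 0.0634 without control replicate 3. Without control replicate 1 they were 0.0315 and 0.00650. The adjusted limma p stayed at 0.403 or above for TRA2A-d and 0.553 or above for TRA2A-c.

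The read totals of TRA2A-c and TRA2A-d pointed the same way as their rates. Skipping reads, shared by TRA2A-b, TRA2A-c and TRA2A-d, came to 512 in control and 312 in RBM47 cells, a ratio of 0.609. Including reads of TRA2A-d came to 1573 and 1332, and its share rose from 0.754 to 0.810 (Fisher's exact test, two-sided, p = 4.94e-05, adjusted p = 0.00200). For TRA2A-c they came to 702 and 592, and the share rose from 0.578 to 0.655 (Fisher's exact test, p = 0.000370, adjusted p = 0.0110). Both events were re-matched.

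The lowest of the 3, TRA2A-b, was near full skipping. Its rates were 0.0244, 0.0138 and 0.0386 in control and 0.0202, 0.0260 and 0.0128 in RBM47 samples, with overlapping groups. It had 45 including reads in control and 18 in RBM47 cells (Fisher's exact test, p = 0.176). Events TRA2A-e and TRA2A-f shared a span of 9612 bases with no matched exon and only 135 and 113 skipping reads. TRA2A-f had rates of 0.143, 0.0909 and 0.0815 in control and 0.179, 0.0909 and 0.1 in RBM47 samples, which overlapped (limma adjusted p = 0.936, Fisher's exact test p = 0.528). TRA2A-e had means of 0.0723 ± 0.0124 and 0.104 ± 0.0396 (SD, n = 3). By read totals the including share was lower in RBM47 cells, opposite to the rate in both events. It went from 0.224 to 0.204 for TRA2A-e and from 0.270 to 0.236 for TRA2A-f. For TRA2A-b the share fell from 0.0808 to 0.0545.

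SRSF6 is an SR protein with a pair of RNA recognition motifs. Both SRSF6 events spanned 41520414 to 41521948 on chromosome 20 in the table. By gene and span both matched the 268-base poison exon at 42087793 to 42088060 in GRCh37. They shared their skipping reads but differed in including reads, 1321 for SRSF6-a and 1926 for SRSF6-b in control. Which of them used this exon could therefore not be assigned. SRSF6-b had rates of 0.163, 0.249 and 0.286 in control and 0.213, 0.304 and 0.253 in RBM47 samples. SRSF6-a had rates of 0.138, 0.224 and 0.253 in control and 0.178, 0.266 and 0.223 in RBM47 samples. In both events the groups overlapped, and the first sample of each group was the lowest of its group.

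The means of SRSF6-b were 0.233 ± 0.0631 and 0.257 ± 0.0459, and those of SRSF6-a 0.205 ± 0.0599 and 0.222 ± 0.0441 (SD, n = 3). The adjusted limma p was 0.837 for SRSF6-b and 0.888 for SRSF6-a, and the 95% intervals of the difference were −0.0548 to 0.103 and −0.0610 to 0.0963. Including and skipping reads were both lower in RBM47 cells, by ratios of 0.650 and 0.696 for SRSF6-b, and the Fisher p was 0.461 (exact test). By read totals the including share of SRSF6-b was 0.849 for control and 0.840 for RBM47 cells, opposite in direction to the rate. SRSF6-a likewise went from 0.794 to 0.776 (Fisher's exact test, p = 0.270).

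SRSF4 is a larger SR protein with an extended arginine- and serine-rich domain. SRSF4-c and SRSF4-d shared the span 29358472 to 29359615 on chromosome 1 in the table, which held the 195- and 228-base poison exons. These ended at the same donor and began at different acceptors. SRSF4-d had rates of 0.0365, 0.0413 and 0.0616 in control and 0.0654, 0.0711 and 0.0707 in RBM47 samples. All RBM47 samples were above all control samples, though by a small step, and the means were 0.0465 ± 0.0133 and 0.0691 ± 0.0032 (SD, n = 3).

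SRSF4-c had rates of 0.0177, 0.0259 and 0.0445 in control and 0.0398, 0.0297 and 0.0442 in RBM47 samples, which overlapped. Including reads were equal in the groups, 203 and 203 for SRSF4-d and 175 and 175 for SRSF4-c, while the shared skipping reads came to 757 in control and 475 in RBM47 cells. The Fisher p was 5.95e-05 for SRSF4-d (exact test, adjusted p = 0.00234) and 0.000135 for SRSF4-c (adjusted p = 0.00473). The including share, 0.211 and 0.299 for SRSF4-d was far above the rate. In the table as a whole, 576 of 963 aligned events whose control rates were all 0 still had including reads in control, so the including totals and the rates do not count the same reads. SRSF4-d was re-matched, and with the rates in its own row the difference was −0.000325.

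SRSF7 differs from the other members in carrying a zinc knuckle. SRSF7-b, SRSF7-c and SRSF7-d shared the span 38829224 to 38830350 on chromosome 2 in the table, which held the 276- and 449-base poison exons. The span also fitted a 75-base coding exon, but with a shift between table and GRCh37 positions that the span of SRSF7-a did not share. SRSF7-b had rates of 0.0755, 0.0745 and 0.0781 in control and 0.0581, 0.0330 and 0.0759 in RBM47 samples. The groups overlapped, with a tight control group and a wide RBM47 group, and the means were 0.0760 ± 0.00186 and 0.0557 ± 0.0216 (SD, n = 3).

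SRSF7-c had rates of 0.0111, 0.0120 and 0.01001 in control and 0.0221, 0.0135 and 0.0224 in RBM47 samples. Every RBM47 sample was above every control sample, though both groups were near full skipping. SRSF7-d had rates of 0.0493, 0.0505 and 0.0589 in control and 0.0532, 0.0438 and 0.0590 in RBM47 samples, which overlapped. The difference was −0.0204 for SRSF7-b, 0.00828 for SRSF7-c and −0.000873 for SRSF7-d, so the 3 events of this span did not share a direction. The SRSF7-b difference was −0.00901 without RBM47 replicate 2, its lowest sample.

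In the read totals the 3 SRSF7 events did share a direction. The skipping reads were 2850 in control and 2755 in RBM47 cells, a ratio of 0.967, and the ratio of including reads was 0.704 for SRSF7-b, 0.727 for SRSF7-c and 0.729 for SRSF7-d. The including share fell from 0.336 to 0.269 for SRSF7-b (Fisher's exact test, p = 7.94e-11), from 0.418 to 0.351 for SRSF7-c (exact test, p = 4.38e-11) and from 0.508 to 0.437 for SRSF7-d (exact test, p = 4.08e-13). For SRSF7-c this is opposite to the rate. All 3 events were re-matched, and with the rates in their own rows SRSF7-b and SRSF7-d differed by 0.0236 and 0.0734.

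**Figure D3:**
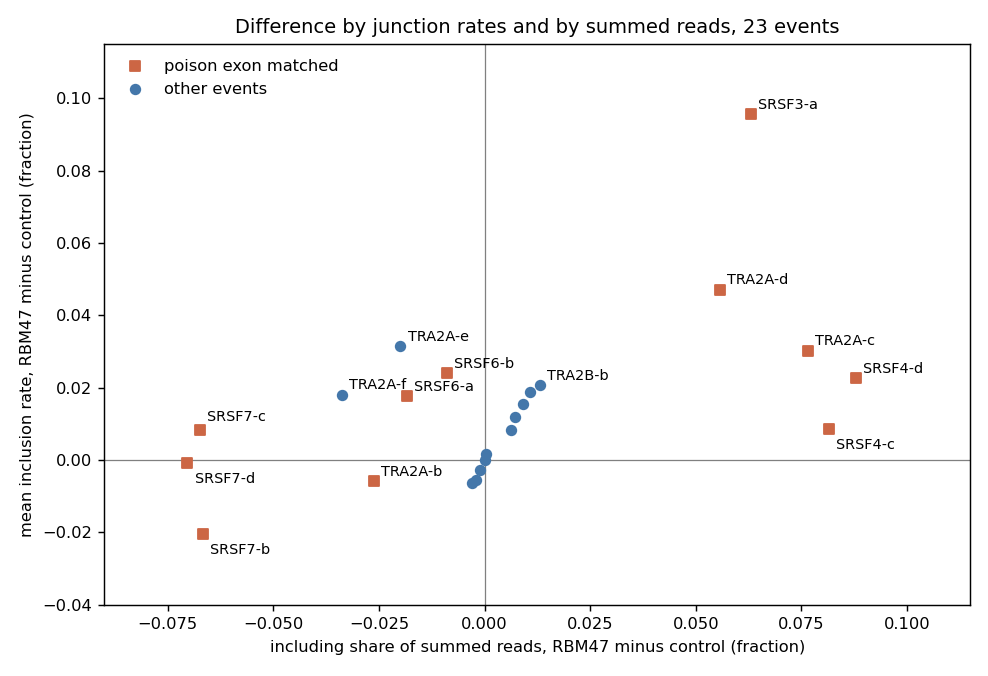
Difference in the including share of summed reads (horizontal axis, fraction) against the difference in mean inclusion rate (vertical axis, fraction), both RBM47 minus control, for the 23 member events, with those over a poison exon as orange squares and the others as blue circles. SRSF3-a lies at 0.0630 and 0.0956, and the 3 SRSF7 events of the poison exon span lie left of 0, with differences in share of −0.0667 to −0.0704.

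Over the 23 events, rate and including share went in opposite directions in 5, against 9.52% of all events. Among the 11 events over a poison exon the share was higher in RBM47 cells in 5 and lower in 6, where the rate was higher in 8. Of the 14 member events with at least 100 skipping reads in control, 8 had a skipping ratio of at most 0.7, against 34.8% of 5208 such events, and 4 had an including ratio of at most 0.7, against 40.3%. The limit of 0.7 was not a planned criterion. It lies just above the skipping ratio of both SRSF6 events (0.696) and at the including ratio of TRA2A-f (0.7), so a lower limit gives lower counts. The 14 events lay in 7 spans and the 8 in 4, and events of 1 span share their skipping reads. The median ratios over the 5208 events were 0.813 for skipping and 0.790 for including reads. These ratios were not scaled for sequencing depth, and the ratio of all reads over all events was 0.910. The cause of a lower read total was not tested.

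**Figure D4:**
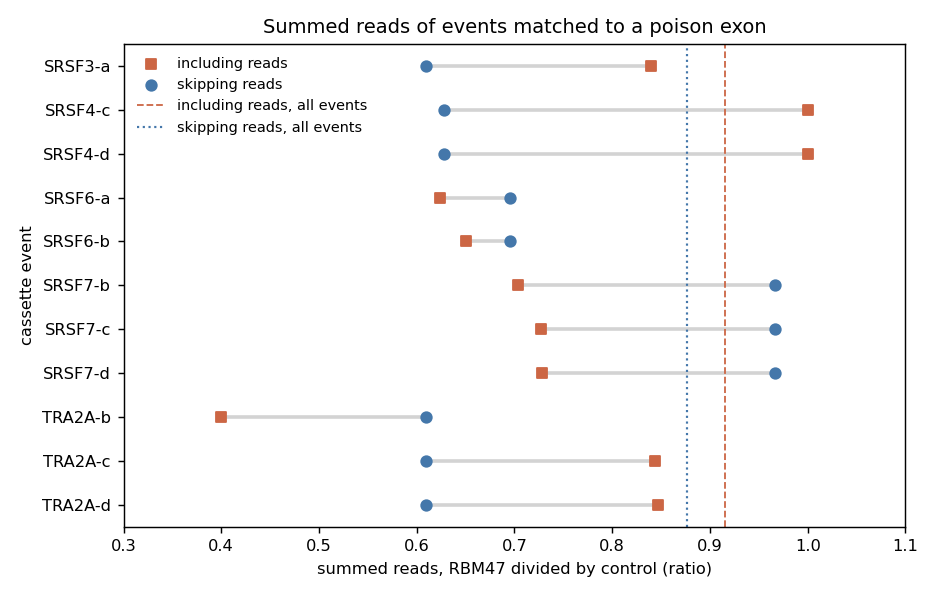
Summed reads in RBM47 cells divided by those in control cells (horizontal axis, ratio) for the 11 events over a poison exon, with including reads as orange squares, skipping reads as blue circles and the ratios over all events as a dashed (including, 0.916) and a dotted (skipping, 0.876) line. Skipping ratios are 0.609 to 0.627 in the SRSF3, SRSF4 and TRA2A events and 0.967 in the SRSF7 events, and including ratios are the lower of the pair in the SRSF6 and SRSF7 events and TRA2A-b.

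The other 11 member events had no poison exon match and, apart from TRA2A-e, were near full inclusion. In these 10 events the group means ran from 0.895 to 1 and the differences from −0.00640 to 0.0206. They included the 36-base coding exon of SRSF7 (SRSF7-a), the 189-base coding exon of TRA2A (TRA2A-a), a 99-base coding exon of SRSF5 (SRSF5-a) and the 60- and 134-base coding exons of TRA2B. SRSF7-a had rates of 0.897, 0.886 and 0.902 in control and 0.913, 0.914 and 0.914 in RBM47 samples, with no overlap. Its Fisher p was 0.00248 (exact test, adjusted p = 0.0474). TRA2A-a had rates of 0.997, 0.996 and 1 in control and 0.992, 0.991 and 0.993 in RBM47 samples, also with no overlap, but with 3 and 6 skipping reads (Fisher's exact test, p = 0.178).

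TRA2B, which activates exons through GA-rich enhancers, was included at high rates in its 3 events. TRA2B-b and TRA2B-c shared 1 span and 63 skipping reads in control and 37 in RBM47 cells. Both matched the 134-base exon by that span but differed in including reads, so which used it could not be assigned. TRA2B-b had rates of 0.901, 0.916 and 0.936 in control and 0.934, 0.936 and 0.945 in RBM47 samples, which overlapped. Its Fisher p of 0.0329 (exact test) did not pass adjustment over all events (adjusted p = 0.268). SRSF5-a, with 0 skipping reads in control and 5 in RBM47 cells, had a Fisher p of 0.0255 (exact test, adjusted p = 0.227).

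Related genes were taken from a list of 39, of which 33 had events, 102 in all. By the study criteria 0 of the 102 were higher (0.611% of all events) and 0 lower (0.793%) in RBM47 cells, and limma called 0 of the 31 tested (1.53% of all events tested), with 5 at an unadjusted p under 0.05 (12%). At a Fisher p of at most 0.05 and any size, 27 of the 102 passed, against 14.4% of all events and 20.2% of all events with 1000 reads or more. The 102 had a median of 1239.5 reads, against 665 for all events, and some shared a span and skipping reads. The 27 were 19 of 47 events of SR-related splicing factors, 6 of 35 of the kinases that phosphorylate SR proteins and their nuclear import receptor, and 2 of 20 of nonsense-mediated decay and exon junction complex genes. Rates were higher in 40, lower in 49 and equal in 13 of the 102.

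The 5 related events with an unadjusted limma p under 0.05 lay in CLK1, SON, SRSF11, SRPK2 and PRPF4B, and are given because of their values. CLK1 is a kinase that phosphorylates SR proteins. Its event at 201432647 to 201434433 on chromosome 2 in the table had rates of 0.867, 0.831 and 0.841 in control and 0.729, 0.610 and 0.730 in RBM47 samples. All RBM47 samples were below all controls, with means of 0.846 ± 0.0187 and 0.690 ± 0.0688 (SD, n = 3), a difference of −0.157. The limma p was 0.00177 (adjusted p = 0.0666), and the Fisher p was 9.24e-10 (exact test). SON is a large nuclear speckle protein with an arginine- and serine-rich domain. Its event at 33863146 to 33867630 on chromosome 21 had means of 0.194 ± 0.0175 and 0.0944 ± 0.0782, with RBM47 replicate 3 near the controls (limma adjusted p = 0.3803). The CLK1 and SON events were re-matched, so their rates were taken from another row that carried both averages.

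Of the other 3 events, those of SRSF11 and PRPF4B were higher and that of SRPK2 lower in RBM47 cells. SRSF11 is an SR-related splicing factor. Its event at 70466692 to 70469473 on chromosome 1 had rates of 0.628, 0.723 and 0.690 in control and 0.879, 0.818 and 0.895 in RBM47 samples, with no overlap. The difference was 0.183, with a limma p of 0.00128 (adjusted p = 0.0546), and the event had only 34 skipping reads in control and 11 in RBM47 cells (Fisher's exact test, p = 0.328). SRPK2 is a kinase of SR proteins. Its event at 104553464 to 104554744 on chromosome 7 had means of 0.826 ± 0.0583 and 0.629 ± 0.150 (SD, n = 3) with overlapping groups. The difference was −0.197 (limma adjusted p = 0.387), with only 25 skipping reads in control and 28 in RBM47 cells. Another SRPK2 event, at 104544058 to 104554022, was higher in RBM47 cells, with means of 0.160 and 0.262 and overlapping groups. PRPF4B, a kinase of the spliceosome, had means of 0.837 ± 0.0222 and 0.913 ± 0.0166 (SD, n = 3) without overlap, a difference of 0.0762 (limma adjusted p = 0.185).

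The 3 events of other genes closest to SRSF3-a in their 6 rates, by Euclidean distance over 22972 events with 30 or more reads per group, lay in STAG3L2 (distance 0.0354), AURKA (0.0859) and TIMM8B (0.0928). The STAG3L2 event rested on 49 reads in control and 39 in RBM47 cells. The difference in mean rate was 0.101 for STAG3L2, 0.0714 for AURKA and 0.102 for TIMM8B.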

How the data were processed

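RNA-seq of 3 control and 3 RBM47 samples was analysed from the deposited table of cassette exon events. The authors deposited inclusion rates per sample, as a fraction, and the including and skipping reads as counts summed over a group. TopHat is named in the submitters' processing notes, and the build of the table's coordinates is not given in the sources used here. The authors' columns with a difference in inclusion, an odds ratio and a p-value were not used.

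Rates were taken from the row whose values averaged to the printed group averages (tolerance 3e-09). Of 1392 rows that were not aligned, 1122 were matched by both averages, 252 by the RBM47 average, and 18 were left without rates, leaving 24707 events. Fisher's exact test (scipy 1.17.1) was run on the read totals. limma 3.58.1 in R 4.3.3 was run on arcsine-square-root transformed rates, with the variance allowed to follow log2 reads, for mean rates of 0.1 to 0.9. Both were adjusted by Benjamini-Hochberg over all events tested. The limma step was also run on simulated data with changes larger than any member difference. That run does not show how well it finds differences of the size seen here. Exons were matched to GENCODE 44 on GRCh37 by gene and outer span, with no conversion of coordinates.

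The members and lists were chosen with earlier results of these data known. Sample values were given for events with a mean rate of 0.1 to 0.9, events that passed a test, and events over a poison exon. SRSF7-a, TRA2A-a, TRA2B-b and the related events were added after their values were seen. Alternatives varied the difference and read minimum, the source of the rates, the limma scale, trend and rate limits, a replicate block and the samples left out.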

Additional observations from a re-analysis of the deposited data

How the results depend on the processing

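The 23 SR and TRA2 events had 0 calls by the study criteria in the alternatives run, except with no minimum difference, where there were 11. The related genes had 0, but 27 with no minimum difference, 4 with a difference of 0.1, and 1 with rates from read totals, 1 with rates as they stood in the row and 0 to 1 with a sample left out. limma gave 0 calls for both lists in every alternative run. With all mean rates tested, the lowest adjusted limma p of a member was 0.321. Depth per sample is unknown, and the cause of the changes below was not tested.

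Of 150 alternatives of the 12 events that the naming rule chose, 131 were the same and 19 reversed. None were run for SRSF7-a, TRA2A-a and TRA2B-b. A difference was checked for its direction only. An adjusted limma p was checked for its side of 0.05, and for direction only where a sample was left out. A reversal without 1 sample could be counted both as a difference and as a limma p, so the 150 are not separate checks. With rates from read totals the difference was −0.0185 for SRSF6-a, −0.00894 for SRSF6-b, −0.0674 for SRSF7-c and −0.0338 for TRA2A-f. With rates as they stood in the row it was −0.000325 for SRSF4-d, 0.0236 for SRSF7-b, 0.0734 for SRSF7-d and −0.0122 for TRA2A-d. With each sample left out in turn, it ran from −0.0159 to 0.0416 for SRSF6-a, −0.0107 to 0.0509 for SRSF6-b, −0.00438 to 0.00323 for SRSF7-d, −0.0118 to 0.000585 for TRA2A-b and −0.00963 to 0.0370 for TRA2A-f. The adjusted limma p then ran from 0.734 to 0.992 for SRSF6-a, 0.709 to 0.993 for SRSF6-b and 0.857 to 0.987 for TRA2A-f. With log2 odds the adjusted limma p of SRSF3-a was 0.295.

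Same-numbered samples did not deviate together over 5999 events (r = −0.0223, −0.00555 and 0.0141), and the numbers were not taken to pair samples. With the replicate block limma gave 0 calls for both lists, and the adjusted p of SRSF3-a was 0.221.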
